A study of Mus musculus with 62 samples.

Results

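A set of 9 genes of the perineuronal net and brain extracellular matrix was chosen by gene symbol, namely Acan, Bcan, Ncan, Vcan, Hapln1, Hapln2, Hapln4, Tnr and Tnc. Their Ensembl identifiers were matched to the rows of 2 deposited count tables, and 7 of the 9 had a row among 12483 genes in either table. Bcan, Ncan, Vcan, Hapln1, Hapln4 and Tnr were in both tables, and Hapln2 was in the table of the suprachiasmatic nucleus (SCN) alone. Acan and Tnc were not analysed here.

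RNA was sequenced from frozen punches of the SCN (n = 19 libraries), the nucleus accumbens (NAc, n = 26) and the prefrontal cortex (PFC, n = 17) of 26 male and female C57BL/6J mice, each library from 1 animal. All tissue was taken at ZT6, that is 6 h after lights on, and 12 mice gave all 3 regions. The mice had been through circadian rhythm disruption (CRD) or were matched controls, and were killed weeks later. The labels name CRD in adolescence or adulthood for this tissue and the study's methods name adolescence alone, so whether adult CRD is among these libraries is not known. Region and mouse number stand in the labels of each library, but its CRD or control group and sex do not, so the comparisons here are between regions, each without regard to these groups. Nothing in the labels ties these punches to a cell type, and in bulk tissue fewer cells of a type and less RNA per cell cannot be told apart.

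Perineuronal nets are lattices of matrix that surround the body and proximal dendrites of certain neurons, best known around the parvalbumin interneurons of the cortex. Chains of hyaluronan at the cell surface carry chondroitin sulfate proteoglycans of the lectican family, small link proteins clamp the proteoglycans to the hyaluronan, and tenascin-R ties proteoglycans to each other. Nets mature late in postnatal life, and a looser form of the same matrix fills the rest of the brain tissue and surrounds nodes of Ranvier.

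Of the lecticans, Bcan encodes brevican, Ncan neurocan, Vcan versican and Acan aggrecan. Hapln1, Hapln2 and Hapln4 encode link proteins, and Tnr and Tnc encode tenascin-R and tenascin-C. In the GENCODE M21 annotation of GRCm38, the lectican and link protein genes lie side by side in pairs with 0 genes between them. Ncan (ENSMUSG00000002341, chromosome 8 from 70093085 to 70120873, minus strand) lies 2222 bp from Hapln4 (ENSMUSG00000007594, chromosome 8 from 70083457 to 70090862, plus strand). Vcan (ENSMUSG00000021614, chromosome 13 from 89655312 to 89742509, minus strand) lies 43659 bp from Hapln1 (ENSMUSG00000021613, chromosome 13 from 89539796 to 89611652, plus strand). Bcan (ENSMUSG00000004892, chromosome 3 from 87987531 to 88000230) and Hapln2 (ENSMUSG00000004894, chromosome 3 from 88021750 to 88027583) are 21519 bp apart, both on the minus strand. Tnr (ENSMUSG00000015829) spans 408 kb of chromosome 1 from 159523769 to 159931729 on the plus strand. Exons of Tnr share 443 bp with the antisense gene Gm38039, which is a row of neither table. The counting setting for strand is not given in the sources used here, so reads of the 2 genes cannot be told apart.

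The 250 bases before the RefSeq start of Bcan, Vcan and Tnr are printed because these 3 genes went with different measures of the tissue below, and because their windows overlap no GENCODE exon. They are given 5′ to 3′ on the strand of the gene (RefSeq, GRCm38.p6), with capitals for a match to the CCAAT box on either strand. Bcan is at chr3:88000357-88000606, minus strand. Vcan is at chr13:89742513-89742762, minus strand. Tnr is at chr1:159523519-159523768, plus strand.
Bcan: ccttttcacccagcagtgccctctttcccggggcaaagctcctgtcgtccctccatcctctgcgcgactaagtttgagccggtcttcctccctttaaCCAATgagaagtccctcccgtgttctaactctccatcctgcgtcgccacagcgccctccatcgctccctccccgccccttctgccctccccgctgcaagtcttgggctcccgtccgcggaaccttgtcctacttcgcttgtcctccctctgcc
Vcan: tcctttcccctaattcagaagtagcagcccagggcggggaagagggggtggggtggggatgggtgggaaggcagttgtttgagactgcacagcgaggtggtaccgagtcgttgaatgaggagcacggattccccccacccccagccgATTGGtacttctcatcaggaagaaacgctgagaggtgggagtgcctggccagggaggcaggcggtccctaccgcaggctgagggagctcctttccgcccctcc
Tnr: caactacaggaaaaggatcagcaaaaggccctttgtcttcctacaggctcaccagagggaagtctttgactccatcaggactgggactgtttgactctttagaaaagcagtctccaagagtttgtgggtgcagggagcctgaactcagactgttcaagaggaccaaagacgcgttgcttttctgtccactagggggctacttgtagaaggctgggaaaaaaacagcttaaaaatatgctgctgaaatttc
The windows were searched on both strands for the E-box that clock factors bind, spelled CACGTG, which 6.02% of 32851 windows of the same length held. They were also searched for the TATA box, spelled TATAAA and held by 12.4% of windows, and for the core of the SOX factors, spelled ACAATG and held by 10.7%. The core of the cAMP response element, spelled TGACG, was held by 17.8% of windows, and the CCAAT box by 33.8%. Of these motifs the CCAAT box alone was found, 1 time in Bcan and 1 time in Vcan, where the printed strand shows its reverse complement. It overlapped none of the others.

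The SCN libraries held 16496666 to 35389742 counts, those of the NAc 28879724 to 60009482 and those of the PFC 31216225 to 50333579. Defining markers matched the labelled regions in most libraries. The summed level of 9 SCN neuron markers was 78.5 to 414 CPM in the SCN, and 8 striatal markers summed to 1590 to 3800 CPM in the NAc against 69.9 to 155 CPM in the PFC. 3 SCN libraries stood apart in marker levels. SCN J1199 and SCN J1140 held 733 and 335 CPM of 6 striatal markers against a median of 126 CPM, and SCN J1165 held 2820 CPM of 10 oligodendrocyte markers against a median of 1170 CPM. In the NAc, 7 cortical markers summed to 12.1 to 471 CPM, highest in NAc J1199, against 833 to 985 CPM in the PFC.

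Levels are given as CPM (counts of a gene per 1000000 counts of its library) after 1 TMM scaling over the genes in both tables, and as CPM per kilobase of exon where genes are compared with each other. Per kilobase, Bcan had the highest median of the members in every region, at 24.2 CPM per kilobase for the SCN, 26.8 for the NAc and 19.8 for the PFC. Ncan came next, with medians of 6.77, 15.2 and 15.4 CPM per kilobase in the same order. Hapln4 exceeded Hapln1 in the SCN, at 5.01 against 0.33 CPM per kilobase, and in the PFC, at 6.25 against 3.17. In the NAc this order was turned, with 1.53 for Hapln4 and 2.53 for Hapln1.

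**Figure D1:**
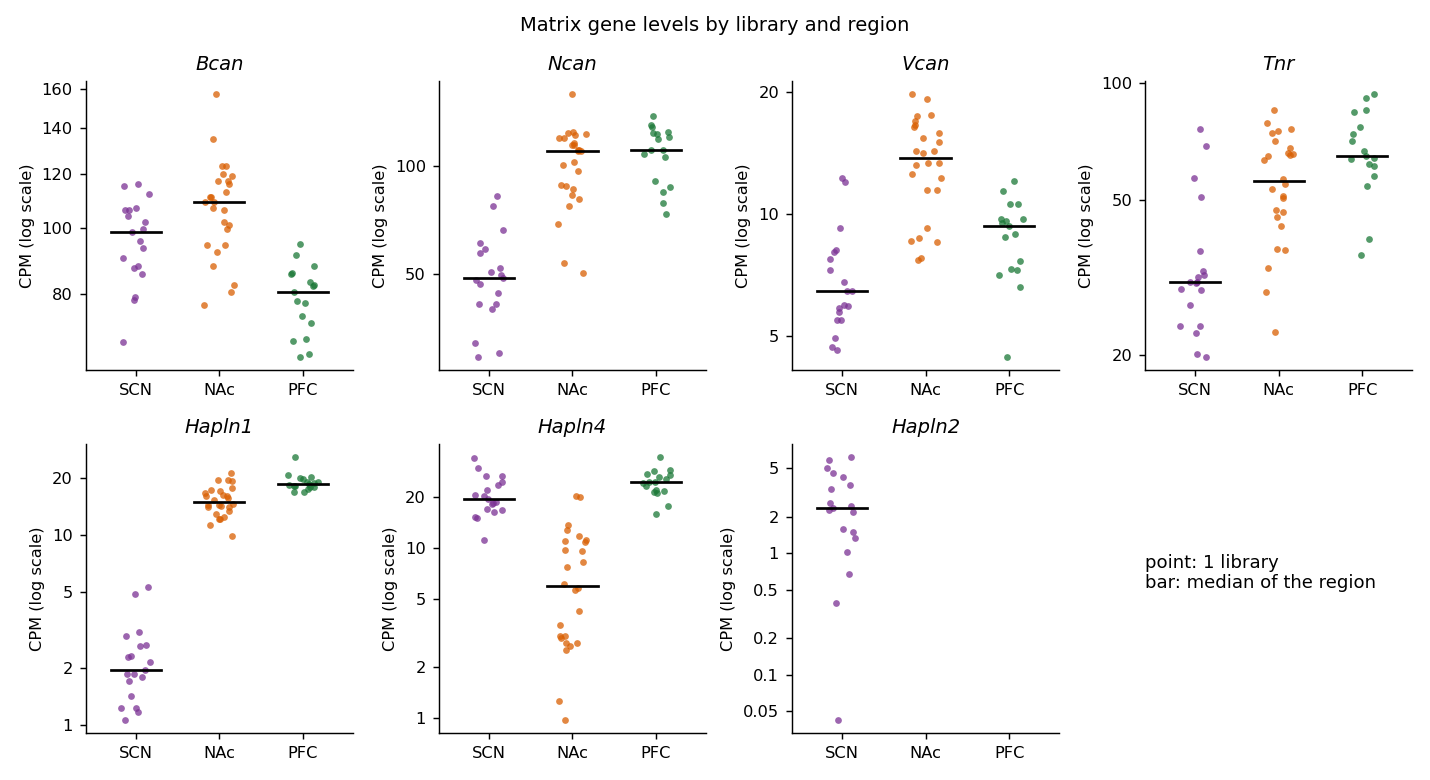
Level of each measured gene in CPM (y axis, log scale) by region (x axis), with a point for each library and a bar at the median of the region. Hapln1 is low in all 19 SCN libraries and high elsewhere, and Hapln4 spreads from 0.971 to 20.4 CPM in the NAc.

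The NAc and PFC were compared across all 11569 genes of their table with edgeR's quasi-likelihood test, and a called gene is one with a fold change of at least 1.2 and a p under 0.05 after Benjamini-Hochberg adjustment. Of the 6 members tested, 4 were called, with Bcan and Vcan higher and Hapln1 and Hapln4 lower in the NAc, beside 45.4% of all genes. The SCN was compared with each other region on the 11133 genes of both tables. Against the NAc 5 of 6 members were called, beside 64.1% of all genes, with Ncan, Vcan, Hapln1 and Tnr lower and Hapln4 higher in the SCN. Against the PFC 5 of 6 were called, beside 64.7% of all genes, with Ncan, Vcan, Hapln1 and Tnr lower and Bcan higher in the SCN. With 6 members, none of these shares stands clear of that of all genes, and both SCN comparisons share the SCN libraries. The SCN libraries were filtered and deposited apart from the others, so region and any difference in their handling cannot be told apart.

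**Figure D2:**
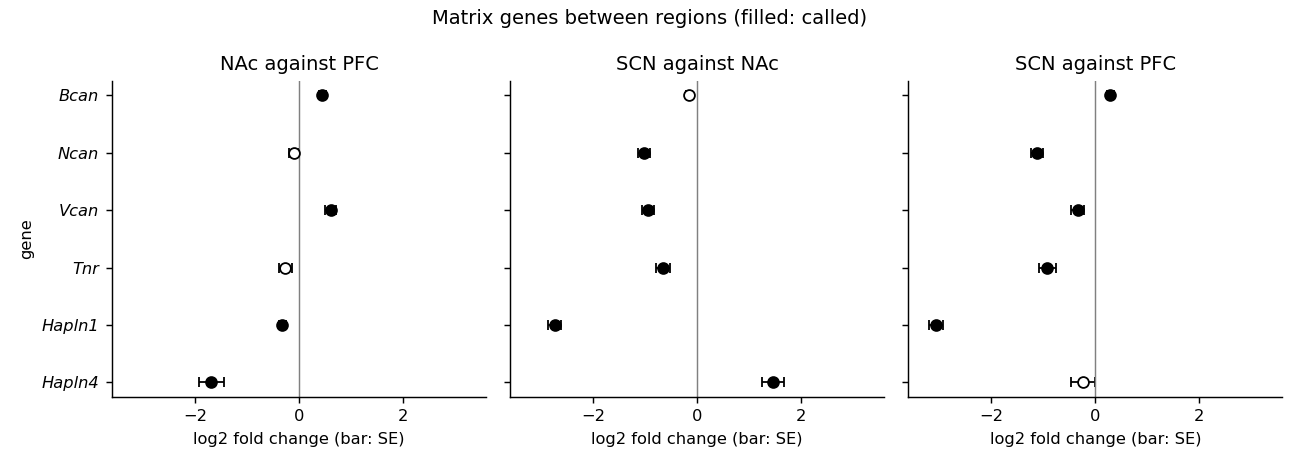
Log2 fold change (x axis) of each gene (y axis) between regions from the edgeR fits, with bars for the standard error and filled points for called genes. Hapln1 sits at -2.74 and -3.06 in the SCN comparisons, farther from 0 than any other member.

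Brevican, the shortest lectican, is made by astrocytes and by other glia and neurons. Bcan was at 68.0, 98.4 and 116 CPM (lowest, median, highest) in the SCN, 77.0, 109 and 157 CPM in the NAc and, in the PFC, 64.6, 80.5 and 94.5 CPM. The ranges overlapped, yet 19 of 26 NAc libraries lay above the highest PFC library. Bcan exceeded its PFC level in the NAc by 0.45 on the log2 scale (SE 0.065, adjusted p = 5e-08, edgeR), and in 15 of 17 mice with both regions. Its difference was 0.28 among the lower mouse numbers, up to J1021, and 0.58 among the upper, from J1140. Against the PFC it was higher in the SCN by 0.29 (SE 0.069, adjusted p = 0.00018, edgeR) and in 11 of 12 mice, with 0.18 in the lower range, where the call was lost, and 0.37 in the upper. The SCN against NAc difference of -0.16 (SE 0.063, adjusted p = 0.016, edgeR) was under the fold threshold, with -0.10 in the lower range and -0.21 in the upper.

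Neurocan, a lectican of neurons and astrocytes, had a lower median in the SCN than in both other regions. Ncan was at 29.3, 48.7 and 82.7 CPM in the SCN, 50.3, 110 and 159 CPM in the NAc and, in the PFC, 73.4, 111 and 138 CPM. 17 of 19 SCN libraries lay below the lowest PFC library, but only 11 of 19 lay below the lowest NAc library. The highest SCN libraries, J1159 (82.7 CPM) and J1199 (77.4 CPM), reached into the range of both other regions. Ncan was lower in the SCN than in the NAc by a log2 difference of -1.02 (SE 0.11, adjusted p = 4.7e-13, edgeR) in 19 of 19 mice, and lower than in the PFC by -1.12 (SE 0.12, adjusted p = 3.4e-13, edgeR) in 12 of 12 mice. Within the lower and upper mouse numbers these were -1.04 and -1.02 against the NAc, and -1.40 and -0.92 against the PFC. Between the NAc and PFC its difference was -0.09 (SE 0.099, adjusted p = 0.42, edgeR), at -0.36 in the lower range and 0.10 in the upper, neither called.

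Versican, of which glial progenitors are a known source, had its lowest median in the SCN and its highest in the NAc. Vcan was at 4.63, 6.47 and 12.3 CPM in the SCN, 7.73, 13.8 and 19.8 CPM in the NAc and, in the PFC, 4.44, 9.35 and 12.1 CPM. The highest SCN libraries were J1165 and J1199, 2 of those that stood apart, and all regions overlapped. The NAc exceeded the PFC by 0.61 (SE 0.11, adjusted p = 7.6e-06, edgeR), in 14 of 17 mice, with 0.52 in the lower range and 0.68 in the upper. The SCN was below the NAc by a log2 difference of -0.95 (SE 0.12, adjusted p = 8e-11, edgeR) in 18 of 19 mice, with -1.12 and -0.85 in the ranges. Its difference from the PFC was -0.34 (SE 0.13, adjusted p = 0.015, edgeR), with -0.60 in the lower range and -0.17 in the upper. That call was lost in the upper range. It was also lost in the 12 mice with both regions, without mouse as a replicate block (-0.23, adjusted p = 0.17, edgeR) and with it (-0.24, adjusted p = 0.15).

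Hapln1 encodes a link protein needed for perineuronal nets and set the SCN apart from the NAc and PFC more than any other member did. It was at 1.06, 1.95 and 5.30 CPM in the SCN, from 22 to 168 counts a library. NAc libraries held 9.90, 14.9 and 21.3 CPM, and PFC libraries 17.0, 18.7 and 25.9 CPM. No SCN library reached the lowest NAc or PFC library. Ranges that did not overlap were found for 13.2% of all genes between the SCN and NAc and for 20.7% between the SCN and PFC, and among the 6 members for Hapln1 alone. Between the NAc and PFC no member had separate ranges, beside 9.06% of all genes.

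The log2 difference of Hapln1 was -2.74 against the NAc (SE 0.13, adjusted p = 2.2e-29, edgeR), a 6.68-fold lower level, and it was lower in 19 of 19 mice. Against the PFC it was -3.06 (SE 0.13, adjusted p = 1.1e-30, edgeR), 8.34-fold lower, in 12 of 12 mice. The highest SCN values, 5.30 and 4.90 CPM, were those of J1199 and J1140, the SCN libraries highest in striatal markers, and the next was 3.07 CPM. Without these 2 libraries the differences were -2.98 and -3.30. In the lower and upper ranges they were -3.33 and -2.41 against the NAc, and -3.49 and -2.88 against the PFC. Across the SCN, Hapln1 went with the striatal marker score at Pearson r = 0.66 (Spearman rho 0.08, permutation p = 0.0051, adjusted p = 0.011, n = 19), but at -0.35 without the 2 libraries farthest from the median score, so the relation rests on them. It was 0.26 in the lower range and 0.74 in the upper.

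Between the NAc and PFC the difference in Hapln1 was smaller. It was lower in the NAc by a log2 difference of -0.32 (SE 0.069, adjusted p = 9.7e-05, edgeR), in 15 of 17 mice. The difference was -0.16 in the lower range, where it was not called, and -0.46 in the upper. In the 17 mice with both regions it was under the fold threshold, at -0.25 without mouse as a replicate block (adjusted p = 0.0012, edgeR) and -0.26 with it (adjusted p = 0.0033).

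Hapln4, a link protein that holds brevican around the synapses of some neurons, had the opposite pattern across the SCN and NAc. It was at 11.2, 19.6 and 34.2 CPM in the SCN, 0.971, 5.99 and 20.4 CPM in the NAc and, in the PFC, 15.9, 24.5 and 34.5 CPM. 24 of 26 NAc libraries lay below the lowest PFC library. The exceptions, NAc J1140 (20.4 CPM) and NAc J1199 (19.9 CPM), also held the most RNA of the 7 cortical neuron markers in the NAc. Hapln4 was lower in the NAc than in the PFC by a log2 difference of -1.69 (SE 0.24, adjusted p = 5.6e-08, edgeR), 3.24-fold, and in 17 of 17 mice. It was -2.15 in the lower range, -1.38 in the upper, -2.05 without the 5 NAc libraries highest in Slc17a7 (the vesicular glutamate transporter of cortical projection neurons) and, in the 17 mice with both regions, -2.24 without and -2.52 with mouse as a replicate block. In the SCN it exceeded the NAc by 1.46 (SE 0.21, adjusted p = 8e-09, edgeR) in 17 of 19 mice, with 1.78 and 1.25 in the ranges. The SCN and PFC differed by -0.23 (SE 0.23, adjusted p = 0.36, edgeR), with -0.37 and -0.13 in the ranges, which did not exceed the spread between libraries.

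Tenascin-R, made mainly by oligodendrocytes and some interneurons, crosslinks the lecticans. Tnr was at 19.7, 30.7 and 76.0 CPM in the SCN, 22.8, 55.8 and 85.3 CPM in the NAc and, in the PFC, 36.0, 65.0 and 93.7 CPM. 14 of 19 SCN libraries lay below the lowest PFC library, and the highest, J1159 and J1157, held 76.0 and 69.1 CPM. The SCN was lower than the NAc by a log2 difference of -0.66 (SE 0.14, adjusted p = 3.3e-05, edgeR) in 16 of 19 mice, with -0.90 and -0.55 in the ranges. It was lower than the PFC by -0.92 (SE 0.16, adjusted p = 3.1e-07, edgeR) in 10 of 12 mice, with -1.37 and -0.66 in the ranges. The NAc against PFC difference of -0.26 (SE 0.13, adjusted p = 0.067, edgeR) was not called, but it was called in the lower range (-0.47, adjusted p = 0.048), though not in the upper range (-0.11). It was called in the 17 mice with both regions, without mouse as a replicate block (-0.45, adjusted p = 0.0033, edgeR) and with it (-0.47, adjusted p = 0.011). It was also called without the 5 NAc libraries highest in Slc17a7 (-0.31, adjusted p = 0.044).

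Several members, Tnr most closely, also followed a property of whole libraries. An index of long transcripts was computed for each library, as the mean log2 level, relative to the mean of each gene, of 1068 coding genes with at least 10.78 kb of exon, less that of all coding genes. Its median was -0.23 for SCN, 0.12 for NAc and 0.08 for PFC libraries, and it ranged from -0.41 to 0.15 within the SCN. The highest SCN values were those of J1157 (0.15) and J1159 (0.07). Fits without the SCN libraries that stood apart in marker levels kept both. Tnr, with 12867 bp of exon, followed the index at Pearson r = 0.92 in the SCN (Spearman rho 0.88, n = 19), 0.74 in the NAc (rho 0.76, n = 26) and 0.93 in the PFC (rho 0.89, n = 17). The permutation p of each was 1e-05, the smallest that 100000 resamples can give, with an adjusted p of 4.8e-05 over the 24 relations of this family. Without the 2 farthest libraries r was 0.85, 0.73 and 0.82. In the lower range it was 0.86, 0.78 and 0.78, called in the NAc alone, and in the upper 0.93, 0.78 and 0.96. Tnr, and Vcan with 14462 bp of exon, are over the length cut, so the index holds them among its 1068 genes.

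Ncan followed the index at r = 0.69 (rho 0.62, adjusted p = 0.0025), 0.67 (rho 0.71, adjusted p = 0.00072) and 0.90 (rho 0.84, adjusted p = 4.8e-05) in the SCN, NAc and PFC by permutation tests. Without the 2 farthest libraries these were 0.56, 0.57 and 0.81. In the lower range r was 0.18, 0.71 and 0.85, none called, and in the upper 0.79, 0.77 and 0.91. Vcan had r = 0.53 (adjusted permutation p = 0.037), 0.65 (0.00084) and 0.50 (0.073), and Hapln4 had r = 0.51 (adjusted permutation p = 0.049), 0.30 (0.19) and 0.75 (0.0014), in the same order. Among the lower mouse numbers these were 0.18, 0.75 and 0.73 for Vcan and 0.24, 0.47 and 0.51 for Hapln4, and in the upper 0.56, 0.56 and 0.36 for Vcan and 0.59, 0.21 and 0.80 for Hapln4. Without the 2 farthest libraries they were 0.48, 0.62 and 0.51 for Vcan and 0.44, 0.30 and 0.64 for Hapln4, and the SCN values of both no longer passed. Bcan had r from 0.08 to 0.39 and Hapln2 0.12, none called. Hapln1 had r from -0.27 to -0.02 over the regions, with adjusted permutation p of 0.36 or more. With the index as a covariate in the edgeR fit, the SCN against NAc difference of Tnr turned from -0.66 to 0.46 (SE 0.12, adjusted p = 0.00056), and that of SCN against PFC from -0.92 to 0.01 (SE 0.12, adjusted p = 0.97). In the same fits Ncan went from -1.02 to -0.29 against the NAc (adjusted p = 0.038) and from -1.12 to -0.51 against the PFC (adjusted p = 0.00021), both still called. Vcan lost both calls, at -0.32 and 0.18. Hapln4 went from 1.46 to 2.08 against the NAc (SE 0.33, adjusted p = 7.5e-08) and from -0.23 to 0.28 against the PFC (SE 0.32, adjusted p = 0.43, not called). Hapln1 was at -2.80 and -3.11, and Bcan at -0.04 and 0.39. Between the NAc and PFC, Tnr became -0.48 (SE 0.082, adjusted p = 1.9e-06, edgeR) and was called. Because the index differs between regions, region and the index cannot be told apart in the SCN comparisons of Tnr, Vcan and Ncan. The same holds for the size of the Hapln4 difference. Ncan (7195 bp of exon) and Hapln4 (3924 bp) are shorter than the length cut, and what the index reflects was not tested.

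**Figure D3:**
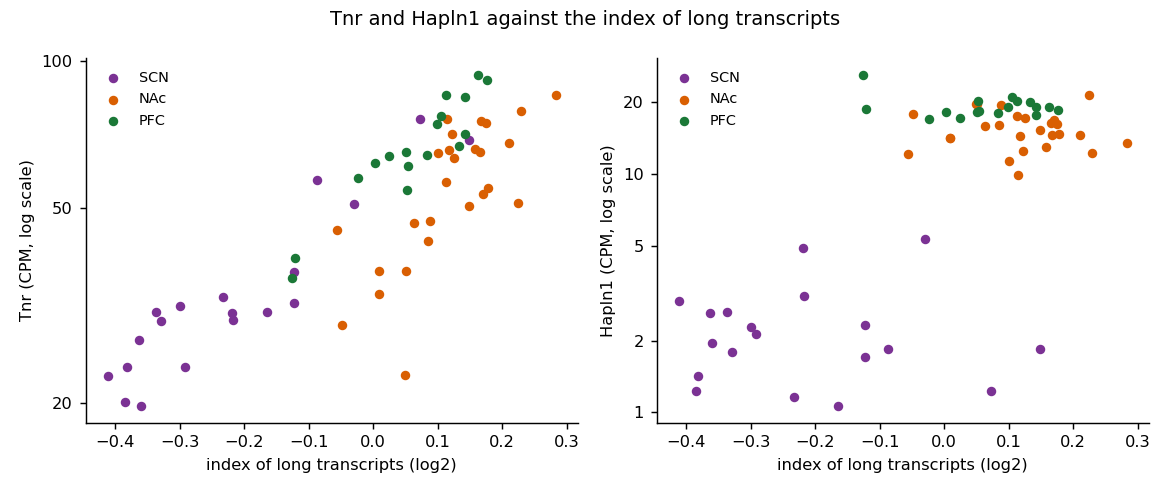
Tnr (left) and Hapln1 (right) in CPM (y axis, log scale) against the index of long transcripts (x axis, log2), with a point for each library coloured by region. Tnr climbs with the index in every region, while Hapln1 in the SCN stays at 5.30 CPM or less at every value of the index.

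Within regions, 19 relations between a member and a score of cell type markers were tested, and 12 had an adjusted permutation p under 0.05. Each score averages the z-scores of its marker genes over the libraries of a region. Bcan, Vcan and Hapln2 were each set against their listed cell type score only. Whether a relation is particular to that cell type was not tested. In the SCN the summed astrocyte, OPC (oligodendrocyte precursor cell) and oligodendrocyte markers were all highest in J1165 and all lowest in J1017. Bcan followed 10 astrocyte markers in every region, at Pearson r = 0.83 in the SCN (rho 0.76, n = 19), 0.73 in the NAc (rho 0.66, n = 26) and 0.84 in the PFC (rho 0.78, n = 17). The raw permutation p were 3e-05, 2e-05 and 3e-05, and the adjusted ones 8.1e-05, 7.6e-05 and 8.1e-05. Without the 2 farthest libraries r was 0.71, 0.61 and 0.84. In the lower range it was 0.91, 0.92 and 0.86, and in the upper 0.77, 0.60 and 0.88. Ncan followed the same markers in the NAc (r = 0.73, rho 0.68, adjusted permutation p = 6.3e-05, with 0.81 and 0.63 in the ranges), but its r was 0.23 in the SCN (adjusted permutation p = 0.37) and 0.45 in the PFC (adjusted permutation p = 0.10). In the PFC it was 0.91 in the lower range and 0.20 in the upper.

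Vcan followed markers of oligodendrocyte precursor cells (OPC) such as Pdgfra, at r = 0.62 in the SCN (rho 0.71, adjusted permutation p = 0.0083), 0.74 in the NAc (rho 0.70, adjusted permutation p = 7.6e-05) and 0.73 in the PFC (rho 0.72, adjusted permutation p = 0.00088). Without the 2 farthest libraries these were 0.66, 0.62 and 0.72. In the lower range r was 0.83, 0.83 and 0.86, and in the upper 0.55, 0.69 and 0.71, and the SCN relation was not called in the upper range nor the PFC relation in the lower. Tnr had r of 0.06, 0.25 and -0.29 with 10 oligodendrocyte markers, none called, with adjusted permutation p from 0.30 to 0.80.

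Hapln2, the link protein of nodes of Ranvier, was measured in the SCN alone, where it was at 0.0425, 2.36 and 6.19 CPM, from 1 to 184 counts. Its level spread over the SCN libraries more than that of 99.8% of 12047 genes, with an SD of 1.38 on the log2 scale. The highest library was J1165, the SCN library with the most oligodendrocyte RNA, and the lowest was J1178, which held 505 CPM of oligodendrocyte markers. Hapln2 went with 10 oligodendrocyte markers, such as Mbp of myelin, at r = 0.88 (rho 0.96, permutation p = 1e-05, adjusted p = 6.3e-05, n = 19). The r was 0.86 without the 2 farthest libraries and 0.88 without J1199, J1140 and J1165. It was 0.99 in the lower range and 0.85 in the upper. Among the genes of the SCN table most like Hapln2 were Ttyh2 (r = 0.935) and Plekhh1 (0.902) over 19 libraries.

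**Figure D4:**
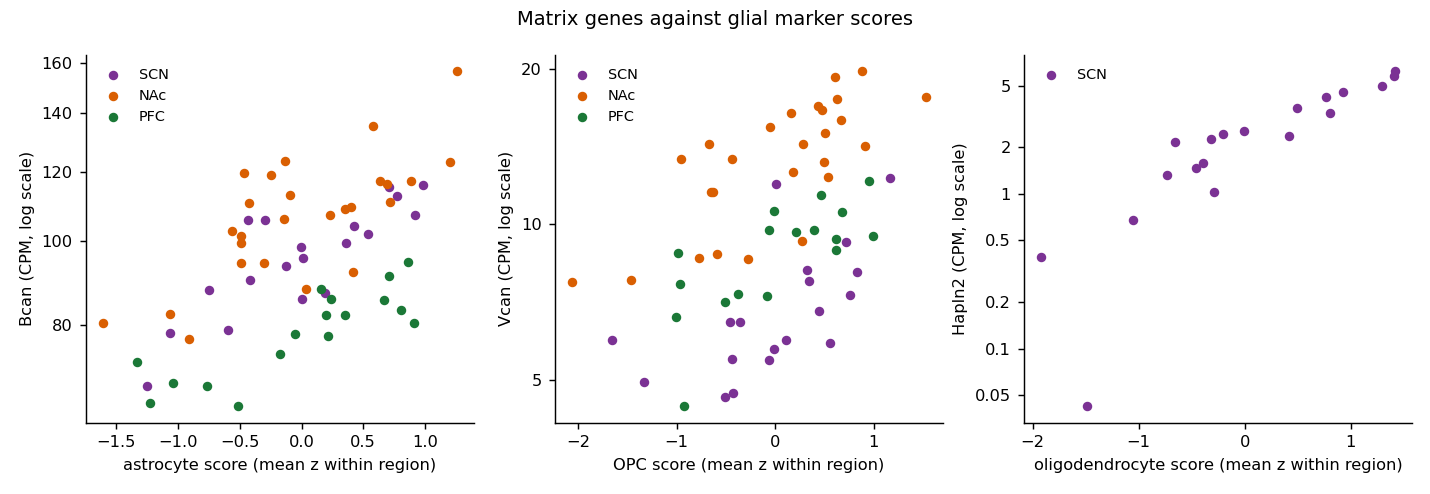
Bcan against the astrocyte score, Vcan against the OPC score and Hapln2 against the oligodendrocyte score, with levels in CPM (y axis, log scale), scores as mean z within the region (x axis) and a point for each library coloured by region. All 3 genes rise with their score, and Hapln2 reaches from 0.0425 to 6.19 CPM.

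Hapln4 went with 8 markers listed for parvalbumin neurons, among them Pvalb, Kcnc1 and Kcnc2, at r = 0.67 in the SCN (6 markers, rho 0.63, adjusted permutation p = 0.0034), 0.89 in the NAc (rho 0.87, adjusted permutation p = 6.3e-05) and 0.76 in the PFC (rho 0.61, adjusted permutation p = 0.0011). Without the 2 farthest libraries r was 0.53, 0.89 and 0.67. In the lower range it was 0.47, 0.90 and 0.70, of which the NAc alone was called, and in the upper 0.81, 0.85 and 0.84. The 6 markers of the SCN score did not include Pvalb or Lhx6, which had no row for the SCN. Several of the 8 markers are not particular to parvalbumin neurons, and Pvalb itself was at 0.665 to 10.8 CPM in the NAc. Tac1, another of the 8, had a median of 118 CPM in the NAc against 5.69 CPM in the PFC. Other scores moved with Hapln4 in the NAc as well. It had r = 0.88 with 7 cortical neuron markers (rho 0.85, adjusted permutation p = 4.8e-05, with 0.89 and 0.86 in the ranges) and r = -0.67 with 8 striatal markers (rho -0.72, adjusted permutation p = 0.00068, with -0.53 and -0.84 in the ranges). The lowest NAc libraries in Hapln4, J965 (0.971 CPM) and J1019 (1.26 CPM), held 12.1 and 25.1 CPM of cortical markers, against 293 and 471 CPM in J1140 and J1199. The part of cortical RNA in these levels was not tested. NAc J965 and NAc J1019 were also the lowest of the NAc in Ncan (50.3 and 53.5 CPM), Vcan (7.73 and 7.79 CPM) and Tnr (22.8 and 28.9 CPM), but not in Bcan or Hapln1. NAc J1019 was lowest in summed oligodendrocyte, astrocyte and parvalbumin neuron markers, and NAc J965 in OPC markers.

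Hapln1, the other link protein tested, had r of 0.25 (SCN), -0.43 (NAc) and -0.17 (PFC) with the same parvalbumin neuron markers. Only that of the NAc passed (rho -0.42, permutation p = 0.03, adjusted p = 0.048), and not by rank (adjusted permutation p = 0.052) or without the 2 farthest libraries (r = -0.41). In the ranges it was -0.55 and -0.13. The r of the PFC turned to 0.62 and passed without the 2 farthest libraries (rho 0.56, adjusted permutation p = 0.024), and was 0.38 in the lower range and -0.30 in the upper, neither called. With cortical markers in the NAc, Hapln1 had r = -0.33 (adjusted permutation p = 0.16).

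The level of each member in the NAc was then set against its level in the PFC of the same mouse, in 17 mice. Of 6 members only Hapln4 passed, with r = -0.81 (rho -0.75, permutation p = 8e-05, adjusted p = 0.00048). The mouse with the lowest NAc level, J965, had the highest PFC level, at 0.971 and 34.5 CPM. J1160, with 11.1 CPM in the NAc, had the lowest PFC level, 15.9 CPM. Its PFC library was also the lowest of the PFC in summed cortical markers (833 CPM) and parvalbumin neuron markers (171 CPM). Its NAc library was among the 5 highest in Slc17a7, at 198 CPM. The part of cortical RNA in the same-mouse relation was not tested. The r was -0.77 without the 2 farthest mice and -0.69 in the upper range (adjusted permutation p = 0.17). In the lower range it was -0.91 (exact permutation test, adjusted p = 0.014, n = 7). Over 11133 genes the median r between the regions of a mouse was -0.079, and 4 genes, or 0.0359%, including Hapln4 itself, were at or below its value. The index of long transcripts had r = 0.06 between the regions. The other 5 members had r from -0.32 to -0.12, with adjusted permutation p from 0.53 to 0.65.

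**Figure D5:**
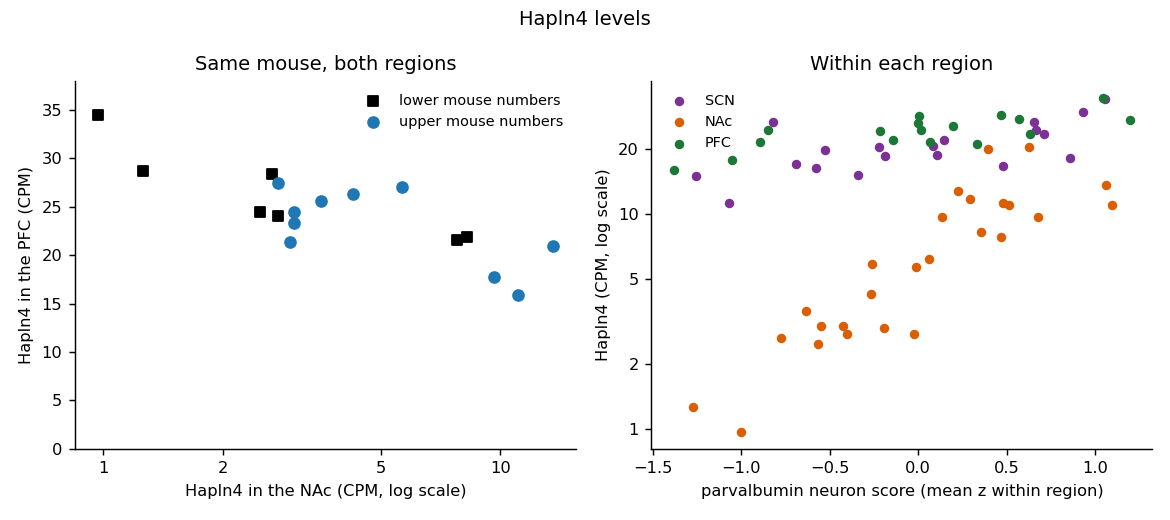
Left, Hapln4 in the PFC (y axis, CPM) against the NAc (x axis, CPM, log scale), with a point for each of 17 mice marked by range of mouse number. Right, Hapln4 (y axis, CPM, log scale) against the parvalbumin neuron score (x axis, mean z within region) by library, where the NAc points span 0.971 to 20.4 CPM.

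Members also varied to different degrees within a region. Hapln4 in the NAc had an SD of 1.15 on the log2 scale, more than 99.1% of 11569 genes, against 0.266 in the PFC. The SD of Hapln1 was 0.62 (SCN), 0.266 (NAc) and 0.142 (PFC). Bcan varied less than most genes, with SDs of 0.206, 0.233 and 0.167 against all-gene medians of 0.288, 0.258 and 0.185.

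After the mean of each region was subtracted, Ncan and Tnr were the most alike pair of members over 62 libraries (r = 0.856), and Hapln1 had r between -0.262 and 0.00759 with the other members. These libraries share mice and depth, so the values are a description. By this measure the genes most like Bcan were Plpp3 (r = 0.839), Itgb5 (0.823) and Csf1r (0.819), the last a microglia marker. Those most like Ncan were Adgrl1 (0.912), Map1a (0.910) and Mink1 (0.909), and among those most like Vcan were Pcsk6 (0.781) and Kif5a (0.777). Hapln1 was most like Cacnb4 (0.753), Arhgap10 (0.743) and Ano3 (0.738), though in the PFC alone its r with Cacnb4 was -0.246. Hapln4 was most like Mast1 (0.935), Bcat1 (0.933) and Sncb (0.930). Tnr was most like Ank2 (0.963), Ank3 (0.961) and Sptan1 (0.954), which encode large proteins of the membrane skeleton.

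The enzymes that build the sugar chains of the lecticans were counted next, to be read beside the 45.4% (NAc against PFC), 64.1% (SCN against NAc) and 64.7% (SCN against PFC) of all genes called. Of all calls, 52.1%, 51.6% and 52.1% were in the higher direction. Of 18 chondroitin sulfate synthesis genes tested between the NAc and PFC, 4 were higher and 6 lower in the NAc and 8 were not called, with a median log2 difference of -0.0724 beside 0.016 over all genes. Ust, the uronyl sulfotransferase, was higher in the NAc by 1.62 (adjusted p = 2.6e-29, edgeR), and Chst15, which adds a further sulfate to make chondroitin sulfate E, by 1.08. Ust was at 16.1 to 24.6 CPM in NAc libraries and at 5.19 to 8.05 CPM in PFC libraries. Dse (-0.78), an epimerase, and Xylt1 (-0.63), which starts the chains, were lower. In the SCN, 7 of the 18 were higher and 7 lower than in the NAc (median 0.098, beside 64.1% of all genes called), and 7 higher and 6 lower than in the PFC (median 0.00177, beside 64.7%). Chst15 was lower there than in the NAc by a log2 difference of -3.28 and than in the PFC by -2.20, at 3.12, 5.05 and 27.0 CPM in the SCN against a median of 66.6 CPM in the NAc. Chsy3, a chondroitin synthase, had log2 differences of -1.96 and -1.74. The sulfotransferase Chst12 was higher in the SCN than in either region (0.89 and 0.71), as were Xylt2 than in the NAc (0.76) and Ust than in the PFC (1.23).

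Of 6 hyaluronan genes tested between the NAc and PFC, Tnfaip6, which binds hyaluronan, was higher in the NAc by 1.63 and Cemip, which degrades it, was lower by a log2 difference of -2.02, and 4 were not called. The median of the list was -0.0232, beside 45.4% of all genes called. Of 5 tested in the SCN, 1 was higher and 1 lower than in the NAc (median 0.0248) and 2 were higher and 1 lower than in the PFC (median 0.126), beside 64.1% and 64.7% of all genes called. Hyal2 was higher in the SCN than in the NAc (0.83) and the PFC (0.89). Tnfaip6 was higher in the SCN than in the PFC (1.35).

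Of 12 matrix proteases and inhibitors, 6 were higher and 1 was lower in the NAc against the PFC, with a median of 0.119 and beside 45.4% of all genes called. Adamts3 was higher by 2.48 and Adamts4, a protease that cuts lecticans, by 1.94, and Adamts20 was lower (-0.48). Adamts4 was at 3.47, 6.18 and 9.06 CPM in the NAc, above the 1.02, 1.51 and 2.89 CPM of the PFC in every library. Its level in the SCN ran from 0.893 to 13.3 CPM. Of 11 tested, 6 were higher and 3 lower in the SCN than in the NAc (median 0.428, beside 64.1% of all genes called), and 7 higher and 3 lower than in the PFC (median 0.931, beside 64.7%). Timp4, an inhibitor of metalloproteinases, was higher in the SCN by 1.35 and 1.62, and the metalloproteinases Mmp17 (-1.41 and -1.60) and Mmp16 (-0.96 and -1.18) were lower. Adamts20 was higher in the SCN than in the NAc (1.41), and Adamts4 than in the PFC (1.88).

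Of 18 proteoglycan receptors, ligands and other net proteins, 2 were higher in NAc than PFC libraries and 12 were lower, with a median log2 difference of -0.359, beside 45.4% of all genes called and a median of 0.016. Rtn4r (-3.13) and Rtn4rl2 (-3.06), receptors of the Nogo family, fell farthest below the PFC, with Rtn4r at 0.353, 2.45 and 11.5 CPM in NAc libraries and 23.2, 29.9 and 34.2 CPM in PFC libraries. Ptprz1, a proteoglycan and phosphatase that binds tenascin-R, was higher by 0.27, and Itih3, a hyaluronan-binding heavy chain, by 0.56 (SE 0.252, adjusted p = 0.04999, edgeR). Itih3 stood out in the SCN, at 101, 134 and 177 CPM against medians of 6.67 CPM for the NAc and 5.12 CPM for the PFC. Its log2 differences were 4.12 and 4.68. The Nogo receptor relative Rtn4rl1 was lower there (-2.65 and -3.21), as were Sema3a, a guidance cue that binds nets, than in the NAc (-2.16) and Nptx2, a pentraxin, than in the PFC (-2.69). Plxna1, a semaphorin receptor, was higher than in the NAc (log2 difference 1.196), and Itih5 than in the PFC (0.43). Of 16 tested, 5 were higher and 5 lower in the SCN than in the NAc (median -0.0454, beside 64.1% of all genes called), and 2 higher and 8 lower than in the PFC (median -0.475, beside 64.7%).

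Of 24 other brain matrix proteins, 3 were higher and 11 lower in the NAc than in the PFC, with a median of -0.221, beside 45.4% of all genes called. Spock3, a testican, was higher by 2.89 and Lamb1, a laminin chain, by 1.32, and Thbs2 (-2.12) and Col1a2 (-1.56), which fibroblasts of the meninges also express, were lower. In the SCN, 11 were higher and 6 lower than in the NAc (median 0.144, beside 64.1% of all genes called), and 6 higher and 5 lower than in the PFC (median 0.115, beside 64.7%). Sparc, a secreted glycoprotein of astrocytes and vessels, was higher by 3.31 and 3.64, at 288 to 727 CPM in the SCN against 22.8 to 102 CPM in the NAc. Thbs2 was higher in the SCN than in the NAc (2.54) and Col1a1 than in the PFC (1.57). Lamb1 was lower than in both (-2.81 and -1.49), Spock3 lower than in the NAc (-1.91) and Lama4 lower than in the PFC (-1.25). Vascular and meningeal markers summed to 65.4 to 189 CPM (SCN), 56.1 to 114 CPM (NAc) and 69.9 to 142 CPM (PFC), and their part in the collagen values was not tested.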

How the data were processed

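The authors prepared libraries from 10 ng of RNA with a SmartSeq HT kit, sequenced paired ends, checked reads with FastQC 0.11.7, aligned them to Ensembl GRCm38 with HISAT2 and assigned them to genes with HTSeq (union mode). They deposited raw counts without normalization, in a table of 12047 genes for the SCN and a table of 11569 genes for the NAc and PFC, after a filter on CPM and without Y-linked genes. The annotation release is not given in the sources used here.

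Gene symbols, positions and exon lengths were taken from GENCODE M21 on the same build. The members, gene lists, marker lists and tests were chosen with earlier results of these data known. All members are named. For each list the 2 genes with the largest fold change among those called in each direction are named, and for likeness the 3 genes with the highest r. Some genes that this rule selects are not reported here. The index of long transcripts, its covariate fits and the 24 relations with it or with neuron scores were added once the data had been seen.

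Levels used 1 TMM scaling over 11133 genes. Regions were compared with edgeR 4.0.16 in R 4.3.3 (quasi-likelihood test, TMM, filterByExpr), the SCN comparisons on all 62 libraries together. DESeq2 1.42.0 was an alternative, as were its size factors, other filters, a fit without mitochondrial and ribosomal RNA genes, mouse as a replicate block, the same mice without it, each range of mouse numbers and fits without the libraries that stood apart. Log2 CPM for correlations used a prior count of 2. Two-sided permutation tests used 100000 resamples and were exact under 10 values. The fits were tested on simulated data. Counts were identical in 0 pairs of libraries from 1 region, and the lowest chi-square per gene between them was 13.1. Libraries with the same mouse number come from the same animal, so the numbers pair them. The deviations of the NAc and PFC libraries of a mouse from their region means correlated at -0.469 to 0.262 (median -0.00345). They were over 0.1 in 8 of 17 mice. For the SCN and NAc the median was 0.00141, with 3 of 19 mice over 0.1. For the SCN and PFC it was 0.0988, with 6 of 12. Correlations were computed in Python 3.11.15 (scipy 1.17.1, numpy 2.4.6, pandas 2.3.3).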

Additional observations from a re-analysis of the deposited data

How the results depend on the processing

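The number of members called moved by no more than 1 between the reported fit and each other setting but 1, and Hapln4 could not be tested among genes over 1 CPM in every library. With the index of long transcripts as a covariate, 3 of 6 members were called between the SCN and PFC, beside 7409 of 11133 genes. This covariate was added after the data had been seen. In its fits log2 differences turned sign for Tnr (0.46 against the NAc, 0.01 against the PFC), Vcan (0.18) and Hapln4 (0.28), the last 2 against the PFC. Between the NAc and PFC, Ncan turned to 0.10 in the upper range. With mouse as a replicate block 4 of 6 members were called between the NAc and PFC, beside 5681 of 11569 genes. Between the SCN and NAc 5 were called, beside 7039 of 11133 genes, and between the SCN and PFC 4, beside 7153 of 11133. The same members were called in the same mice without the block, so the pairing changed the call of no member. In the upper range 0 of 6 same-mouse relations passed, and in the lower range 3 of 24 relations with long transcripts and neuron scores. The causes were not tested.

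Relations that turned sign were those of Hapln1 and the parvalbumin score in the PFC (0.15 by rank, 0.62 without the 2 farthest libraries, 0.38 in the lower range), Tnr and the oligodendrocyte score in the SCN (-0.27 without the 2 farthest, -0.13 in the upper range, -0.06 without the 3 SCN libraries that stood apart) and Ncan and the astrocyte score in the SCN (-0.17 without the 2 farthest). In the same mouse, Hapln1 turned to 0.11 by rank, 0.30 without the 2 farthest and 0.67 in the lower range, Ncan to 0 and 0.03, Vcan to 0.02 and 0.03 (each without the 2 farthest and in the upper range), and Bcan to 0.28 in the lower range. With long transcripts, Hapln1 turned to 0.14 by rank, 0.46 without the 2 farthest and 0.61 in the lower range in the PFC, 0.22 without the 2 farthest in the SCN and 0.08 in the upper range in the NAc. Bcan in the SCN turned to -0.15 (upper range) and -0.03 (the 3 libraries left out), and Hapln2 to -0.04 in the upper range. Hapln1 with cortical markers turned to 0.09 in the upper range in the NAc, and with striatal markers in the SCN to -0.35 without the 2 farthest and -0.17 without the 3 libraries. None of these passed before, except the striatal relation of Hapln1 in the SCN.

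Levels in CPM rose in every region when library size was taken from nuclear protein-coding genes alone. Hapln1 counts in the SCN (22 to 168 a library) and Hapln2 counts (1 to 184) limit the precision of those levels. The CRD, control and sex groups of the libraries are not separated here, and p-values over libraries rest on that spread.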
